A study of Mus musculus with 6 samples.

Results

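The loss of Dnmt3l was examined in postnatal day 8 (P8) spermatogonia by comparing small RNA from knockout (KO) and wild type (WT) mice, with 2 libraries of each genotype, over all genomic intervals that were counted. These are 4 of the 6 libraries of the study. All are from testes of C57BL/6 mice. The P8 cells were a THY1+ fraction enriched for spermatogonial stem cells, and the KO cells carried a Dnmt3l knockout whose allele is not described in the sources used here. The other libraries, 1 WT and 1 KO, came from germ cells enriched from newborn (P0) testes and are used below only as a description. RNA of 15 to 36 nt, a range that holds microRNAs and piRNAs, was isolated from a gel and sequenced. The 6 libraries share 1 batch label, and nothing states that replicates of a group were separate animals, so p-values measure the spread between these libraries, which may be technical.

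The counts are over 1272548 deposited intervals that overlap heavily. Rows sharing a base were merged into 99491 regions, of which 44997 held a single row, and the row with most reads over the 6 libraries stood for each region, which kept most reads from being counted repeatedly. Of these regions 53262 had a read at P8 and 17904 had enough reads to be tested. The kept rows held 5549944 and 5049215 reads in the WT libraries and 4499261 and 4429710 in the KO libraries. Replicates had a Pearson correlation of log2 CPM (counts per 1000000 kept reads) across regions, which are not independent, of 0.986 in WT and 0.983 in KO, against 0.784 to 0.798 between genotypes. The rows carry no gene names, so neither the targeted gene nor markers of spermatogonia or of somatic testis cells could be checked in these data, and fewer cells of a type and less RNA per cell cannot be told apart in such bulk libraries.

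DNMT3L has no methyltransferase activity of its own and assists the enzymes that place DNA methylation on transposons and imprinted genes in male germ cells before and around birth. piRNAs are small RNAs bound by PIWI proteins that guide the silencing of transposons, both by cutting their transcripts and by directing DNA methylation to them. Around birth many mouse piRNAs derive from transposons, whereas in meiotic cells most come from large clusters outside genes, some of the best known of which lie on chromosomes 2, 9, 15 and 17. Whether a region named here is one of those clusters was not examined, because no annotation of the build of the files (GRCm39) was used. For the same reason no region is assigned to a gene body.

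Small RNA rose at a large number of regions in the KO and fell at nearly as many others. With edgeR's quasi-likelihood test and Benjamini-Hochberg adjustment, 8106 regions (45.3% of those tested) passed an adjusted p of 0.05. Of these, 4228 regions (23.6% of those tested) were higher in KO and 3878 (21.7%) were lower. Called changes of 2-fold or more, termed 2-fold gains and 2-fold losses below, were more often gains, with 2720 (15.2%) against 1737 (9.7%). DESeq2 called fewer, with 1734 2-fold gains and 982 2-fold losses. Over every deposited interval, where reads count repeatedly, 22.9% were higher, 21% lower, 15% had 2-fold gains and 11% had 2-fold losses. The median log2 fold change of all tested regions was -0.01, and gains were 52.16% of calls. Scaling by total counts instead of TMM factors moved the median to -0.08 and the share of gains to 47.65%, so a near balance of both directions depends on the scaling in its sign. Both KO libraries lay above both WT libraries at 6479 regions (36.2%) and below them at 6596 (36.8%).

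The shares of gains and losses differed with the surroundings of a region. As a measure of how isolated a region is, the share of the surrounding 1 Mb (500 kb on each side of the middle of the region) that is covered by deposited intervals was used. This is a property of where intervals were listed and not of genes, and it was chosen after the files had been seen in place of a distance to genes. Among 259 tested regions with under 5% of their surroundings covered, 134 (51.74%) had a 2-fold gain and 9 (3.475%) a 2-fold loss, and the median log2 fold change was 1.1. The share with a 2-fold gain was 34.78% at 5 to 10% covered, 24.51% at 10 to 20%, 19.47% at 20 to 40%, 13.79% at 40 to 60% and 11.31% at 60% or more. The corresponding shares with a 2-fold loss were 5.138%, 7.475%, 9.424%, 10.57% and 9.644%. The median was below 0 in the 2 most covered classes, at -0.06 and -0.09. The sparsest class thus had a larger share of gains than the 15.2% and a smaller share of losses than the 9.7% of all tested regions, a description to which no test is attached.

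**Figure D1:**
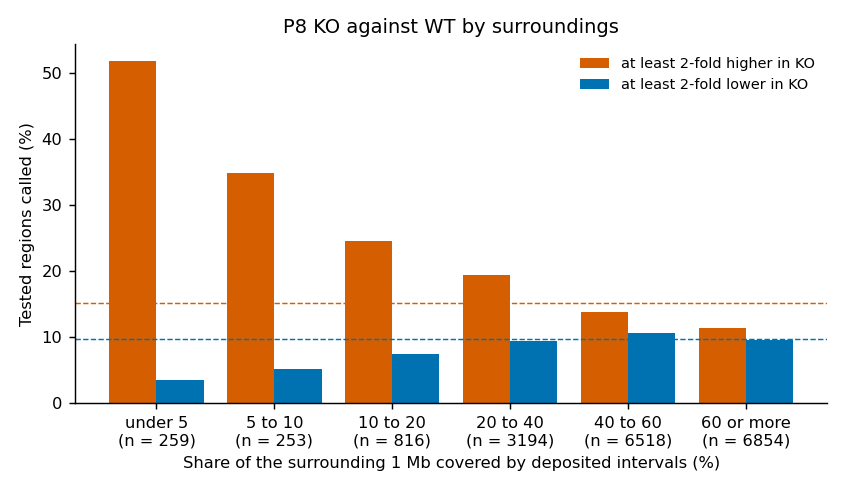
Percent of tested regions with a 2-fold gain (orange) or a 2-fold loss (blue) in KO at P8, by the share of the surrounding 1 Mb covered by deposited intervals; dashed lines give the percent over all tested regions (15.2% and 9.7%) and n is the number tested. The orange bars descend from 51.74% in the sparsest class to 11.31% in the densest.

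The gains in sparsely covered places were spread over the genome. The 259 regions lay in 200 windows of 1 Mb on 20 chromosomes, with at most 8 in 1 window. The median log2 fold change was above 0 in 173 of these windows, and 131 windows held a region called higher against 10 with a region called lower. On each of the 17 chromosomes with 5 or more such regions the median was above 0, from 0.36 on chromosome 2 to 2.96 on chromosome 9. Both KO libraries were above both WT libraries at 190 of the 259 (36.2% of all tested) and below them at 19 (36.8% of all tested).

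Level and length differed between these regions and the rest. Their kept rows were short, with a median length of 2130 bp against 14925.5 bp for all tested regions. They also held few reads, with a median of 6.10 CPM against 8.72 CPM. Where the mean reached at least 10 CPM, 46.74% of 92 had a 2-fold gain and 4.348% a 2-fold loss, while the regions of that level with 60% or more covered had 10.72% and 9.22%. A filter on low counts can favour regions that are high in either group, so regions were also taken by their summed reads over the 4 libraries alone. With at least 50 summed reads, 216 sparsely surrounded regions had a log2 ratio of scaled means with a median of 1.01, and 50.46% had a ratio of 2 or more, against 13.45% of 15872 regions of any surroundings. These shares come from ratios and not from the test. Tested without the filter, 8.103% of the 1555 sparsely surrounded regions with a read had a 2-fold gain and 0.450% a 2-fold loss, against 4.473% and 3.24% of 14508 with 60% or more covered, a smaller contrast in gains than among filtered regions.

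The reads themselves, with no filter, gave the same direction in both KO libraries. The 5302 merged regions with under 5% covered surroundings held 0.329% and 0.350% of the kept reads in the WT libraries and 0.711% and 0.720% in the KO libraries. The KO libraries were both above both WT libraries, at 0.715% ± 0.0062 (SD, n = 2) against 0.340% ± 0.0147 (SD, n = 2), a ratio of 2.11. With 2 libraries a group no exact permutation test can go below p = 0.333, so no p is attached to this share. At P0 the same regions held 1.99% of the reads in WT and 1.55% in KO, more than in any P8 library and with the order of the genotypes reversed. That order rests on 1 library a genotype and on 2 regions with very many reads in the P0 WT library (chr2:98492576-98497677 and chr14:3050005-3054056, described below). Without these 2 regions the P0 share was 1.103% in WT and 1.548% in KO, with KO higher, and the P8 shares were 0.314% and 0.335% in WT against 0.711% and 0.720% in KO. At 60% or more covered, the share was 49.96% and 49.88% in the WT libraries and 48.27% and 48.67% in the KO libraries.

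**Figure D2:**
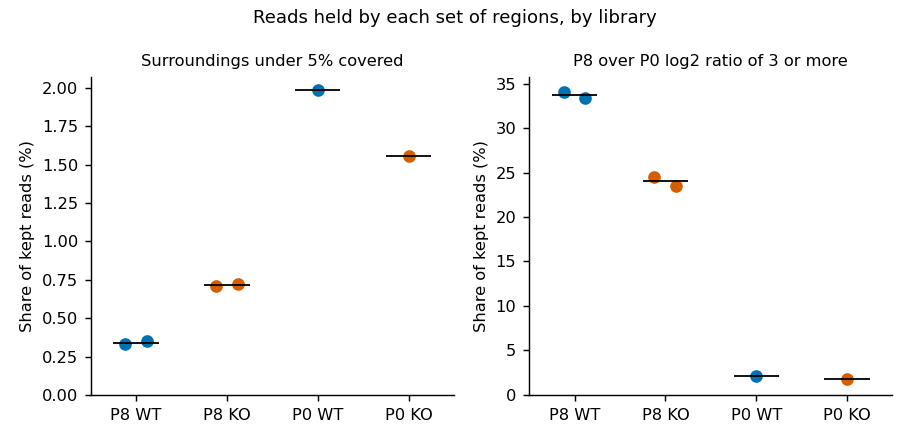
Share of kept reads (%) in each library for regions with under 5% covered surroundings (left) and for regions with a log2 P8 over P0 ratio of 3 or more (right); points are libraries and horizontal lines are means. On the left the P8 KO libraries (0.711% and 0.720%) lie above the P8 WT libraries (0.329% and 0.350%), and on the right they lie below (24.53% and 23.46% against 34.11% and 33.33%).

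Single regions picked as extremes show how large the gains could be. They are not typical, as the median log2 fold change under 5% covered was 1.1. With WT groups at 0 reads set to 3 reads, 20 of those 259 regions had a gain of at least 16-fold. At chrX:80691041-80691916, where 0.555% of the surroundings was covered, 31 and 36 reads were counted in the WT libraries and 1533 and 1299 in the KO libraries. The WT level was 6.22 ± 1.07 CPM and the KO level 324 ± 38.1 CPM (SD, n = 2 in either genotype), without overlap, which was a condition for naming it. The log2 fold change was 5.70 ± 0.16 (SE, edgeR adjusted p = 9.26e-10). At chr12:67882204-67883157, with 0.705% covered, there were 2 and 4 reads in WT and 148 and 140 in KO, a log2 fold change of 5.83 (edgeR adjusted p = 6.86e-08). The P0 libraries had 40 reads in WT and 100 in KO there. Outside the sparsest class, at chr5:12205541-12213229 with 8.22% covered, both WT libraries had 0 reads and the KO libraries had 119 and 99. That is at least 90.0-fold higher against a floor of 3 reads over the WT group.

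The 9 sparsely surrounded regions with a 2-fold loss fell into unlike kinds. The 2 deepest losses had very many reads in the P0 WT library, whereas the other 7 had 5 to 639 reads there and log2 fold changes from -2.31 to -1.10. Reads at chr2:98492576-98497677 (2.33% covered) were 692 and 599 in WT and 7 and 1 in KO, a log2 fold change of -6.98 (edgeR adjusted p = 1.11e-08). At P0 this region had 40927 reads in the WT library and 188 in the KO library. Near the listed start of chromosome 14, chr14:3050005-3054056 had 156 and 163 reads in WT against 2 and 1 in KO, an 85.8-fold higher scaled level in WT with a 95% counting interval of 29.1 to 418.4, and the P0 libraries had 6955 and 38 reads. Just outside the sparsest class, at the listed start of chromosome 9, chr9:3000001-3038402 (5.81% covered) had 1034 and 906 reads in WT, 13 and 10 in KO, and 57847 and 318 at P0. These 3 regions were far lower in both KO libraries at P8 and in the single KO library at P0. Reads from repeated sequence match many places, and how such reads were assigned is not given in the sources used here. Regions in the first 500 kb of listed sequence, 88 of them tested, did not as a class show the gains, with 2-fold gains in 6.818% and 2-fold losses in 11.36%. Of 10 tested regions on scaffolds outside the chromosomes, 2 had a 2-fold gain and 3 a 2-fold loss.

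Among regions that passed the filter, gains took a larger share on the X chromosome than on the autosomes. Of 397 tested X regions, 93 (23.43%) had a 2-fold gain and 32 (8.06%) a 2-fold loss, with a median log2 fold change of 0.22, against 15.00% and 9.727% of 17497 autosomal regions and a median of -0.02. This gap was small where every region with a read was tested. Without the filter, 76 X regions (4.786% of 1588) had a 2-fold gain and 18 (1.133%) a 2-fold loss, against 4.217% and 2.148% of all regions, and DESeq2 called 58 (3.652%) and 15 (0.945%), against 3.256% and 1.844%. The X held 0.706% and 0.712% of the kept reads in the WT libraries and 0.796% and 0.795% in the KO libraries, a ratio of 1.12. Most of the X is sparsely covered by intervals, and only 4 tested X regions had surroundings covered by 40% or more. Within surroundings under 5% covered, 56.00% of 50 X regions and 50.72% of 209 autosomal regions had a 2-fold gain, so the gap between the X and the autosomes was smaller there than over all surroundings. Whether X and autosomes differ was not tested. Among the autosomes, the share with a 2-fold gain ran from 12.70% on chromosome 9 to 19.26% on chromosome 13. Each autosome and the X had regions in both directions. Among called regions of at least 10 CPM, the highest log2 fold change of a chromosome was between 4.80 (chromosome 3) and 9.93 (chromosome 5, with 0 reads in WT), and the lowest between -9.05 (chromosome 17) and -1.87 (chromosome 18).

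Distance to the next region, taken from the same intervals as the covered share, gave a related picture. Length by itself did not separate gains from losses. Of 160 tested regions more than 50 kb from any other region, 45.62% had a 2-fold gain and 3.125% a 2-fold loss. These shares were 11.53% and 10.21% of the 4300 within 1 kb of another, and 15.2% and 9.7% of all tested regions. Of the 787 regions more than 50 kb from any other that had a P8 read, only the 160 passed the filter, so their shares may depend on it. Few merged regions of up to 500 bp had enough reads to be tested, 846 of the 10232 with a P8 read, and of these 29.79% had 2-fold gains and 16.78% 2-fold losses. These high shares turned round when every region with a read was tested without the filter, to 2.766% and 0.987% of 10232, against 4.217% and 2.148% of all 53262, and DESeq2 gave 2.17% and 0.733% against 3.256% and 1.844%. Among those that passed the filter, direction differed with surroundings. In places under 40% covered, 52.34% of 321 such regions had a 2-fold gain and 11.21% a 2-fold loss (median log2 fold change 1.63). In places with 40% or more covered, 2-fold gains were found in 16.03% of 524 and 2-fold losses in 20.04% (median -0.21).

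The most extreme gains were mostly short. At least 16-fold gains were called at 211 regions, or 198 when WT groups with 0 reads were set to the floor of 3 reads, and their median merged length was 897 bp. Of these, 112 (53.08%) were up to 1000 bp long, against 7.026% of all tested regions. The 112 lay on 20 chromosomes, and 88 (78.57%) had surroundings under 40% covered, against 35.77% of all tested regions of that length. Both bases, the 7.026% and the 35.77%, depend on the filter on low counts. Of regions up to 500 bp long with a P8 read, only 846 of 10232 passed it, and it can favour regions that are high in either group. Whether extreme gains are shorter than all regions with a P8 read was therefore not tested. Their median P8 level was 0.282 CPM (WT) against 9.44 CPM (KO), and their median P0 level was 2.22 CPM (WT) against 4.07 CPM (KO). The low WT level at P8, and its place below the P0 levels, follow in part from how these regions were chosen. One such region, chr16:70340245-70340366, had 3 and 2 reads in WT and 179 and 147 in KO, with 12 and 10 reads at P0 (log2 fold change 6.26, edgeR adjusted p = 4.61e-08). Another, chr11:29075348-29075560, had 28 and 22 reads in WT and 1165 and 1011 in KO, with 37 and 33 at P0 (log2 fold change 5.75, edgeR adjusted p = 8.55e-10).

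The direction of change also followed how a region's level differed between the ages. Regions were classed by the log2 ratio of the mean P8 level to the mean P0 level over both genotypes, with 0.5 CPM added to each. The P8 libraries enter both this ratio and the test, and the P0 cells were prepared in another way, so age and preparation cannot be told apart. Of 1220 regions with a ratio under -3, which were far higher at P0, 36.48% had a 2-fold gain at P8 and 3.197% a 2-fold loss, with a median log2 fold change of 0.67. Of 721 regions with a ratio of 3 or more, which were far higher at P8, 7.906% had a 2-fold gain and 28.57% a 2-fold loss, with a median of -0.55. The classes between had intermediate shares in order. Over all tested regions, 15.2% had a 2-fold gain and 9.7% a 2-fold loss. Of the 721 regions with a ratio of 3 or more, 442 (61.3%) were called lower at any size and 127 (17.61%) higher. The same shares over all tested regions were 21.7% and 23.6%. The 721 had a median of 90.36 CPM against 8.72 CPM for all tested, and calls of any size were more frequent at higher levels. At 10 to under 100 CPM, 29.95% of regions were lower and 27.5% higher. At 100 to under 1000 CPM these shares were 40.28% and 34.18%. Regions with a ratio under -3 are low at P8, and 1220 of the 3583 with a P8 read passed the filter. Tested without it, 9.908% of the 3583 had a 2-fold gain and 0.502% a 2-fold loss, against 4.217% and 2.148% of all regions. By DESeq2, the 445 2-fold gains there became 246 (6.866% of 3583) and the 39 2-fold losses 11 (0.307%), against 3.256% and 1.844% of all regions. At a ratio of 3 or more, all 721 were tested, and the shares without the filter were 7.49% and 27.6%.

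**Figure D3:**
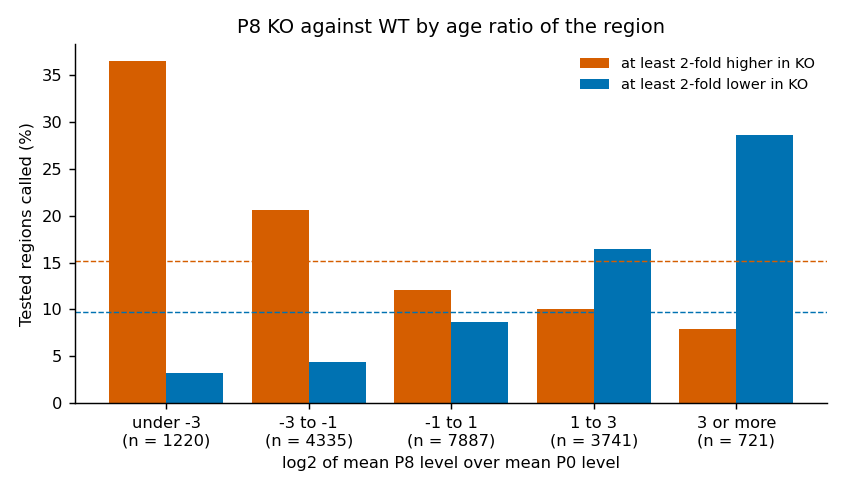
Percent of tested regions with a 2-fold gain (orange) or loss (blue) in KO at P8, by the log2 ratio of the mean P8 level to the mean P0 level; dashed lines give the percent over all tested regions. Gains fall from 36.48% to 7.906% and losses rise from 3.197% to 28.57% across the classes.

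Regions that were far higher at P8 carried a large part of the small RNA, and that part was smaller in the KO. The 721 regions with a ratio of 3 or more held 34.11% and 33.33% of the kept reads in the WT libraries and 24.53% and 23.46% in the KO libraries, against 2.163% and 1.806% in the P0 WT and KO libraries. The KO libraries were both below both WT libraries, and the means (33.7% and 24.0%) differed by well over their SDs of 0.547 and 0.755. The regions with a ratio under -3 held 1.244% and 1.239% of the WT reads against 1.919% and 1.972% of the KO reads.

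Surroundings and the age ratio were also set against each other. With under 10% covered, 44.62% of 316 regions with an age ratio of -1 or more had a 2-fold gain and 5.38% a 2-fold loss, and of 196 with a ratio under -1 these were 41.33% and 2.551%. With 60% or more covered, 7.406% of 4807 regions with a ratio of -1 or more had a 2-fold gain and 11.96% a 2-fold loss, whereas of 2047 with a ratio under -1 these were 20.47% and 4.201%. Under 10% covered, gains were therefore frequent at both kinds of ratio, with medians of 0.83 and 0.85. Of these 2 classes of surroundings, the age ratio went with direction in the densely covered one. Regions with 10 to 60% covered were not split by age ratio.

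In reads, the gains were concentrated in few regions. Summed over all regions with a higher mean in KO, the gain was 266200 CPM, of which 1 region took 11.6%, the top 10 took 25.8% and the top 100 took 51.6%. Summed losses were 223300 CPM, of which the top region took 3.30%, the top 10 took 13.2% and the top 100 took 39.7%. The sparsely surrounded regions, with under 1% of the reads, are a small part of these sums. The reads themselves were concentrated as well. The 100 regions with most P8 reads held a mean of 29.87% of the kept reads in WT and 32.9% in KO.

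The single largest gain in reads was at chr3:51130676-51159683. It had 49907 and 48667 reads in the WT libraries and 180367 and 169953 in the KO libraries, or 9118 ± 453 CPM against 40084 ± 1717 CPM (SD, n = 2 each). The log2 fold change was 2.14 ± 0.04 (SE, edgeR adjusted p = 3.2e-10), and the groups did not overlap. The gain did not extend over the whole merged region, which is 92.9 kb long. Its longest row, chr3:51091812-51130339, had 239 and 186 reads in WT and 167 and 158 in KO, with a log2 fold change of -0.043.

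Further abundant gains, chosen for the size of their CPM difference after the values were seen, lay on chromosomes 1, 2, 4, 5, 7, 9, 13 and 16. At chr5:105843641-105893525 the reads were 5685 and 4830 in WT and 34409 and 30264 in KO (log2 fold change 2.93). At chr7:78984427-78999362 they were 4200 and 3653 in WT and 30704 and 26282 in KO (log2 fold change 3.17). The KO libraries were above the WT libraries by several fold at both. At chr1:161901185-161928718 the reads were 3411 and 3612 in WT and 21473 and 22219 in KO. At chr4:102697376-102746987 they were 3247 and 3062 in WT and 18855 and 16896 in KO. Of the 30 tested rows of that merged region, however, 3 had a 2-fold gain and 8 a 2-fold loss. Around chr5:105843641-105893525 these were 14 and 26 of 200 tested rows. At the other regions with coordinates in this paragraph, no row of the merged region had a 2-fold loss. The region chr16:36585434-36591286, 5.85 kb long, had 8200 and 8108 reads in WT and 31617 and 29233 in KO. At chr2:128794849-128812151 the reads were 2670 and 2671 in WT against 14370 and 17298 in KO. The P0 libraries had 15202 reads in WT and 24557 in KO there. For chr5:105843641-105893525, chr2:128794849-128812151 and chr13:36173224-36199063 the longest row of the merged region had a log2 fold change of -0.41, -0.018 and -0.38, and for chr7:78984427-78999362 of 0.05, so these gains belong to the rows named and not to all of the merged region.

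At other regions called higher that were among those with most reads, the changes were smaller. At chr4:56858211-56892792, with 62237 and 56121 reads in WT and 60055 and 57943 in KO, the log2 fold change was 0.31, the scaled KO level being higher because the KO libraries were shallower. At chr19:8700853-8703665 it was 0.46 and at chr19:9931820-9966741 it was 0.29. Neither passed without a filter on low counts, and the former did not pass by DESeq2.

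The most abundant of the regions called lower was on chromosome 7. At chr7:75412337-75459355 the reads were 113504 and 102264 in WT and 56255 and 53541 in KO, a fall from 19922 ± 125 to 12563 ± 449 CPM (SD, n = 2 in either genotype). Its log2 fold change was -0.67 ± 0.04 (SE, edgeR adjusted p = 1.02e-07). Other abundant regions fell by similar amounts. The log2 fold change was -0.49 at chr1:156440618-156483896, -0.72 at chr15:103098613-103111319 and -0.58 at chr11:79535135-79595377. These 4 regions had 10026, 1587, 3168 and 972 reads in the P0 WT library, in the order named. At chr9:114331480-114364014 the reads were 31773 and 28665 in WT and 10701 and 9815 in KO (log2 fold change -1.25), and at P0 695 and 510. The longest rows of the merged regions at chr15:103098613-103111319 and chr9:114331480-114364014 had log2 fold changes of 0.49 and 1.53, in the other direction. At chr1:131936599-131956441 the log2 fold change was -0.11 (edgeR adjusted p = 0.0369), and the call was lost in 5 alternatives and reversed (1.03) with the longest row.

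**Figure D4:**
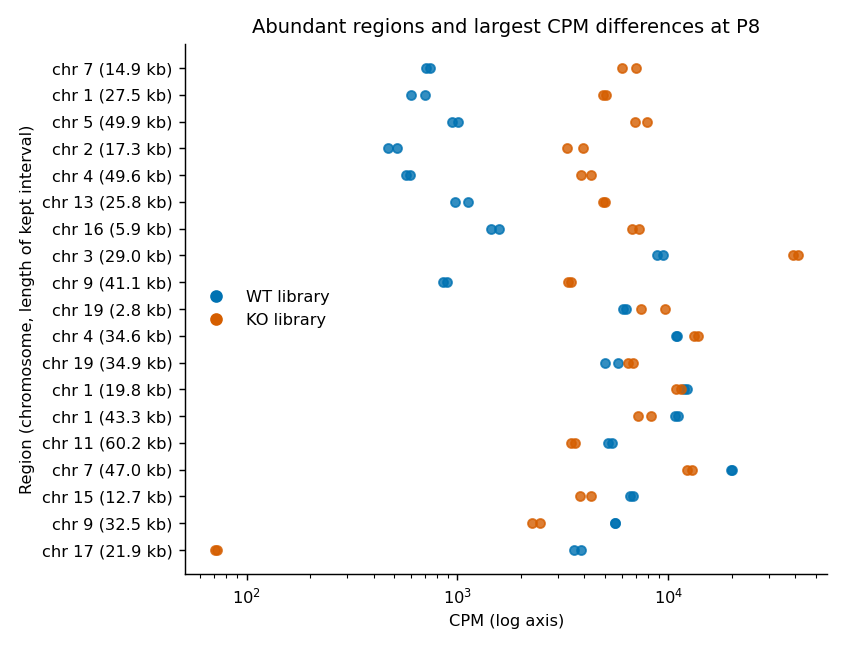
CPM in each P8 library (log axis; blue WT, orange KO) at the called regions with most reads and those with the largest CPM differences, ordered by log2 fold change and labelled by chromosome and length of the kept interval. The KO points of the chromosome 17 region, at a mean of 71.4 CPM, stand far below its WT points, and those of the chromosome 3 region lie farthest right.

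The deepest loss of an abundant region was on chromosome 17. At chr17:27536057-27557986, 20349 and 19925 reads in the WT libraries stood against 308 and 316 in the KO libraries, a fall from 3726 ± 196 to 71.4 ± 1.24 CPM (SD, n = 2 in either genotype). Its log2 fold change was -5.71 ± 0.07 (SE, edgeR adjusted p = 8.36e-12). The P0 libraries had 1130 reads in WT and 461 in KO. The longest row of its merged region, chr17:27510831-27537285, had 14443 and 14454 reads in WT and 130 and 135 in KO, so here the loss covered both rows. Nearby, chr17:27579186-27581142 had 875 and 831 reads in WT and 3 and 4 in KO (log2 fold change -7.58). At chr17:27581941-27583649 there were 404 and 396 reads in WT and 1 and 0 in KO, a ratio of 645.7 with a 95% counting interval of 115.6 to 25530. All 3 regions lie close together and fell.

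Losses of at least 16-fold were called at 61 regions, or 57 when KO groups with 0 reads were set to the floor. They lay on 17 chromosomes and scaffolds, with 9 on chromosome 2, 8 each on chromosomes 9 and 15 and 5 on chromosome 7. In the same order, these chromosomes held 1370, 1008, 756 and 1235 of the 17904 tested regions. Of the 61, 34 (55.74%) had an age ratio of 3 or more, against 4.027% of all tested regions. Up to 1000 bp long were 16 (26.23%), against 7.026% of all tested regions, a base that depends on the filter as above. With 24 (39.34%) in surroundings covered by 60% or more, the 61 were near the 38.28% of all tested regions. On chromosome 9, chr9:67623464-67630476 had 2330 and 2504 reads in WT and 25 and 28 in KO, with 12 and 10 at P0 (log2 fold change -6.20). On chromosome 15, chr15:74512551-74516001 had 1223 and 1239 in WT and 16 and 10 in KO, with 0 and 1 at P0 (log2 fold change -6.25), and chr15:59146592-59161622 had 1779 and 1897 in WT and 37 and 36 in KO (log2 fold change -5.35). On chromosome 2, chr2:92375693-92376044 had 117 and 120 reads in WT and 0 and 2 in KO, a ratio of 95.6 with a 95% counting interval of 26.2 to 794.3. On chromosome 5, chr5:149750553-149755275 had 135 and 152 in WT and 0 and 1 in KO, a ratio of 231.6 with an interval of 41.2 to 9181. Deep losses at well expressed regions were also seen at chr11:103312577-103334879 (3006 and 3414 reads in WT, 56 and 58 in KO) and chr8:92915053-92921053 (2187 and 2221 in WT, 49 and 58 in KO). A lack of overlap between the genotypes was a condition for naming these regions and is not a separate result.

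Neighbouring regions tended to change alike at short range. The log2 fold changes of adjacent tested regions under 1 kb apart correlated at 0.609 (Pearson) and 0.428 (Spearman) across 853 pairs, which share libraries and may share transcripts. The Pearson correlation was 0.365 at 1 to 5 kb, 0.308 at 5 to 10 kb, 0.246 at 10 to 50 kb, 0.140 at 50 to 100 kb and 0.059 at 100 to 500 kb, and -0.006 across the 910 pairs farther apart. Of the pairs under 1 kb apart in which both had a 2-fold gain or loss, 31 were both higher, 41 both lower and 8 opposite. Of those over 500 kb apart, 109 were both higher, 4 both lower and 38 opposite, so gains outnumbered losses in these pairs of tested regions. Over all tested regions, 15.2% had a 2-fold gain and 9.7% a 2-fold loss. Only regions that passed the filter on low counts form pairs, so these counts may depend on it. They draw on the same libraries and tested regions as the shares by surroundings. Rows of a merged region could also disagree. Both rows with a 2-fold gain and rows with a 2-fold loss were held by 565 merged regions, which is 13.91% of the 4061 with a gaining row and 12.52% of the 4512 with a losing row. At chr9:98624872-98665923, where the kept row had a log2 fold change of 1.96, 3 of 18 tested rows of the merged region had a 2-fold gain and 12 a 2-fold loss.

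**Figure D5:**
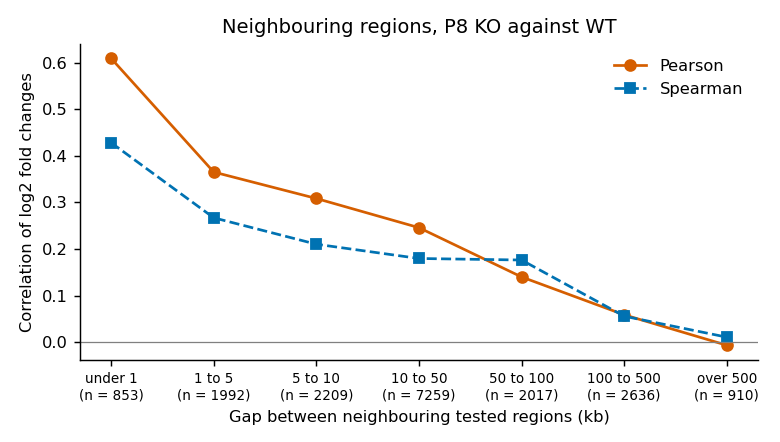
Pearson (orange) and Spearman (blue) correlation of P8 log2 fold changes between neighbouring tested regions, by the gap between them in kb; n is the number of pairs. The Pearson correlation falls from 0.609 under 1 kb to -0.006 over 500 kb.

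The P0 libraries share no library with the P8 test and give a description in a younger preparation. Over 10061 tested regions with at least 100 P0 reads, the median log2 ratio of KO to WT at P0 was -0.23. It was 0.38 for the 1767 regions with a 2-fold gain at P8, of which 75.6% were above the median of all. It was -0.49 for the 662 regions with a 2-fold loss at P8, of which 29.3% were above it. For 137 sparsely surrounded regions it was 0.54, with 81.0% above the median of all. With 1 library a genotype at P0 there is no replicate check of these ratios. For these regions with many P0 reads, the P0 ratios leaned in the direction seen at P8. The size of the change cannot be compared between the ages, as the gains and losses were picked by their size at P8.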

How the data were processed

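The authors deposited raw read counts per genomic interval for 6 small RNA libraries, with row names that give GRCm39 coordinates. The tools listed in the submitters' processing notes are Bowtie 1.1.1, TopHat2 2.1.1, bedtools, FastQC 0.10.1 and cutadapt 1.13. How and in what order these were run, where the intervals came from and how reads with several matches were treated is not given in the sources used here. Coordinates are counted from 1.

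Intervals sharing a base were merged, and the row with most reads over the 6 libraries was kept (ties to the shorter, then the lower start). The P8 genotypes were compared by edgeR 4.0.16 in R 4.3.3 (filterByExpr, TMM, glmQLFit, glmQLFTest, two-sided, Benjamini-Hochberg over all tested regions, threshold 0.05) on the 4 P8 libraries, which leaves 2 residual degrees of freedom. The common biological coefficient of variation was 11.1%. CPM are counts per 1000000 kept reads after TMM scaling. SE is the log2 fold change over the root of the F statistic. Counting intervals and floors (3 reads) cover counting error only, as these libraries have no stated molecular identifiers and reads are then not independent. Counts of replicates differed beyond sampling noise, with a chi-square over its degrees of freedom of 3.88 in WT and 4.35 in KO. The procedure was tested on simulated counts.

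Regions named are the 10 highest and 10 lowest called log2 fold changes with a mean of at least 10 CPM and no overlap of the groups, the 5 called regions with most CPM in each direction and the extremes of each class with 20 or more tested regions. Those with the largest CPM differences were added after their values were seen. The comparison, classes and lists were chosen with earlier results of these data known. Gene bodies, known piRNA loci, gene lists and Dnmt3l itself were planned as well and are not analysed here, since they need an annotation of GRCm39 and the one at hand is of another build. The covered share of the surroundings took the place of distance to genes.

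Alternatives were other scalings, DESeq2 1.42.0, no filter on low counts, a replicate block, each library left out, the longest row per region, every deposited interval, and other windows for the covered share.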

Additional observations from a re-analysis of the deposited data

How the results depend on the processing

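The direction and call of the 73 named regions stayed as reported in 710 of 727 comparisons with alternatives; 10 lost the call and 7 reversed, all 7 with the longest row of the merged region: chr3:51130676-51159683 (-0.043), chr1:131936599-131956441 (1.03), chr15:103098613-103111319 (0.49), chr9:114331480-114364014 (1.53), chr5:105843641-105893525 (-0.41), chr13:36173224-36199063 (-0.38) and chr2:128794849-128812151 (-0.018). Those longest rows are other intervals, with few reads in several cases. DESeq2 called 2300 regions higher and 1929 lower (1734 and 982 by at least 2-fold), 426 of the latter in surroundings 60% or more covered, 58 higher and 15 lower on the X, 246 higher and 11 lower at an age ratio under -3, and 75 lower among regions up to 500 bp. Without the low-count filter 2139 regions were lower, 1144 by at least 2-fold, of which 18 on the X and 18 at an age ratio under -3; 53262 regions were then tested. Over every deposited interval, 56606 were higher and 51928 lower, 37210 and 27293 of them by at least 2-fold, with reads counted repeatedly. With the longest row, the KO minus WT difference in the share of reads was 0.535 percentage points in place of 0.376 for surroundings under 5% covered and 0.231 in place of 0.0867 for the X. Where not stated, the cause was not tested. Leaving out 1 library at a time gave 3075 to 3941 regions higher and 2778 to 3693 lower (2304 to 2575 and 1489 to 1841 by at least 2-fold), where a lone library is assumed to vary like the other group, and 20 to 35 lower at an age ratio under -3. Among sparsely surrounded regions it gave 122 to 130 gains and 7 to 8 losses. Measuring the covered share over 500 kb, over 2 Mb or without the region itself, chosen after seeing the data, gave 151, 97 and 142 gains against 8, 9 and 10 losses there.

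The replicate numbers are only labels. Deviations of same-numbered libraries from their group means correlated at 0.368 over 8345 regions, which with 2 pairs does not establish a pairing. A fit with the replicate number as a block called 4606 regions higher and 4384 lower, and 136 gains and 9 losses in sparse places. Alternatives on gene overlap and on distance to genes were not run, for want of an annotation of the build. Below a few reads in a library, a difference was not detectable at this depth, and 35358 of the 53262 regions with a P8 read were not tested.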
